A study of Mus musculus with 12 samples.

Results

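The proteasome subunit genes of mouse skeletal muscle were followed on 12 Affymetrix Mouse Gene ST arrays. All rows of the values table whose single gene symbol begins with Psma, Psmb, Psmc or Psmd and ends in a number were taken, which gave 37 of 23185 genes. The arrays came from 3 vehicle-injected mice, 4 mice injected with recombinant KC, a mouse chemokine, and 5 mice injected with recombinant human IL-8. Each mouse received 0.1% BSA alone or 50 µg/kg of the chemokine in the same carrier, intraperitoneally and every other day for 6 days. The vehicle and IL-8 mice were male C57BL/6J animals of 8 weeks, and their tibialis anterior (TA) was collected on day 7. For the KC mice the labels name only skeletal muscle, and the sources used here do not give strain, sex, age or day of collection. The question was whether systemic IL-8 or KC changed the RNA of the proteasome in muscle.

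The 26S proteasome degrades proteins tagged with ubiquitin. Its 20S core is a barrel of alpha and beta rings, and the beta subunits Psmb5, Psmb6 and Psmb7 hold the active sites. In the immunoproteasome, which interferon gamma induces and immune cells carry, Psmb8, Psmb9 and Psmb10 replace Psmb5, Psmb6 and Psmb7. The 19S regulatory particle caps the core, with a base that unfolds substrates by means of ATPases and a lid that removes ubiquitin. In muscle, this system breaks down much of the myofibrillar protein that is lost during atrophy. The 37 genes comprised 7 constitutive alpha and 5 constitutive beta core subunits, 3 immunoproteasome subunits, 9 base and 8 lid subunits. The remaining 5 were the core subunits of testis and thymus, Psma8 and Psmb11, and the base assembly chaperones Psmd5, Psmd9 and Psmd10. Psmb3 and Psmb5 were not analysed here.

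The genes are spread over the genome. Psmb8 (chr17:34198195-34201454, GRCm38.p6) and Psmb9 (chr17:34182030-34187330) lie close together in the major histocompatibility complex, and Psmb10 is at chr8:105935728-105938392. Upstream sequence was available from RefSeq (GRCm38.p6) for 30 of the 37 genes, and the 250 bases before each annotated start were searched on both strands. TGACNNNGC, the core bound by Nfe2l1 and Nfe2l2 with small Maf partners, was in 4 of 30 genes (13.3%), against 11.5% of all 27025 genes and 10.2% of their 32851 promoters. GAAANNGAAA, the interferon-stimulated response core bound by IRF proteins, was in 2 of 30 (6.67%), against 3.46% of genes and 2.98% of promoters. TTCNNNGAA, the palindrome bound by STAT dimers, was in 1 of 30 (3.33%), against 8.13% of genes and 7.02% of promoters. These motifs do not overlap each other in the sequences shown. The base and lid genes were all highest on a single array, IL-8 replicate 5. Among those with upstream sequence, TGACNNNGC was found only in Psmc6 and Psmd12 and GAAANNGAAA only in Psmd4. The other genes with these motifs, Psmb6 and Psmd9, were outside this set and highest on KC arrays. In the set, Psmc3, Psmd3 and Psmd7 had no upstream sequence. Shown are stretches of 100 bases from Psmc6 (chr14:45329574-45329673, plus strand), Psmd12 (chr11:107479278-107479377, plus strand) and Psmd4 (chr3:95042640-95042739, minus strand), which belong to that set, and from the immunoproteasome gene Psmb8 (chr17:34198053-34198152, plus strand). Each is written 5′ to 3′ in the direction of the gene, and the capitals mark the match.
Psmc6, TGACNNNGC on the opposite strand: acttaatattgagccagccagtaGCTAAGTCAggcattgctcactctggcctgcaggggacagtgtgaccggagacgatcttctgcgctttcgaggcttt
Psmd12, TGACNNNGC on the opposite strand: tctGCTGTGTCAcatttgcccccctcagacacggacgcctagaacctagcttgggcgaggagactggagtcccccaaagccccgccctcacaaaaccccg
Psmd4, GAAANNGAAA on the opposite strand: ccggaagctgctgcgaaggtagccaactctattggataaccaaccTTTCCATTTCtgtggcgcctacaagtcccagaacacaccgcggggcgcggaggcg
Psmb8, TTCNNNGAA: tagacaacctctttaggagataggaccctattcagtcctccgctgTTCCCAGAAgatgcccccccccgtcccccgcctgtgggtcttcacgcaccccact
The matches start 227, 247, 80 and 97 bases before the annotated start. Psmd9 held both TGACNNNGC and GAAANNGAAA, and the TGACNNNGC of Psmb6 is not shown because it lies within the annotated span of the gene. A match is a description of the letters, and binding was not measured.

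Values are log2 intensities after robust multi-array average (RMA), and differences between groups are log2 fold changes. Array medians were 3.31 to 3.48. Of the 37 genes, 34 had a mean above 3.38, the median over all genes. Psma5, Psma8 and Psmb11 were at or below it and are dim here, so that their differences rest on weak signal. The muscle label was borne out by muscle fiber transcripts, whose mean over 8 genes was 11.7 to 12.2 in every array. Liver transcripts were high in vehicle replicates 2 and 4 and in IL-8 replicate 1, where Alb was at 10.15, 9.78 and 7.70 against 3.14 to 5.36 in the other 9 arrays. Leaving out these 3 arrays leaves a single vehicle array, and values without them are given beside the class medians and named genes they moved most. In whole muscle, fewer cells of a type and less RNA per cell cannot be told apart.

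IL-8 was not associated with a called change of any proteasome subunit. A call required a fold change of at least 1.5 and, in limma over all 23185 genes, a p of 0.1 or less after Benjamini-Hochberg adjustment. At these limits 0 of 37 subunits were called for IL-8 against vehicle, against 2.55% of all genes. The paper gives the same limits but used another analysis tool, and it lists Psmd3 among the genes increased after IL-8. At an unadjusted p under 0.05, 6 of 37 subunits differed, against 21.7% of all genes. These were 3 higher (10.1% of all genes) and 3 lower (11.6%). The median log2 fold change was -0.01 over the 37 genes and -0.07 over all genes, of which 38.7% were higher. With dim genes left out, 56.2% of genes were higher and the median was 0.05. The median was 0.19 over the 17 base and lid subunits, of which 13 were higher, and -0.27 over the 12 constitutive core subunits, of which 10 were lower. All 3 immunoproteasome subunits were lower, with a median of -0.39. These medians moved with single arrays. The base and lid median was 0.04 without IL-8 replicate 5, the core median was -0.13 without vehicle replicate 2, and the immunoproteasome median was -0.14 without vehicle replicate 2. Without the 3 liver-transcript arrays, the core median was -0.06 (-0.10 for the alpha and 0.10 for the beta ring), the base and lid median 0.21, the immunoproteasome median -0.30 and the median over all 37 subunits 0.10.

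**Figure D1:**
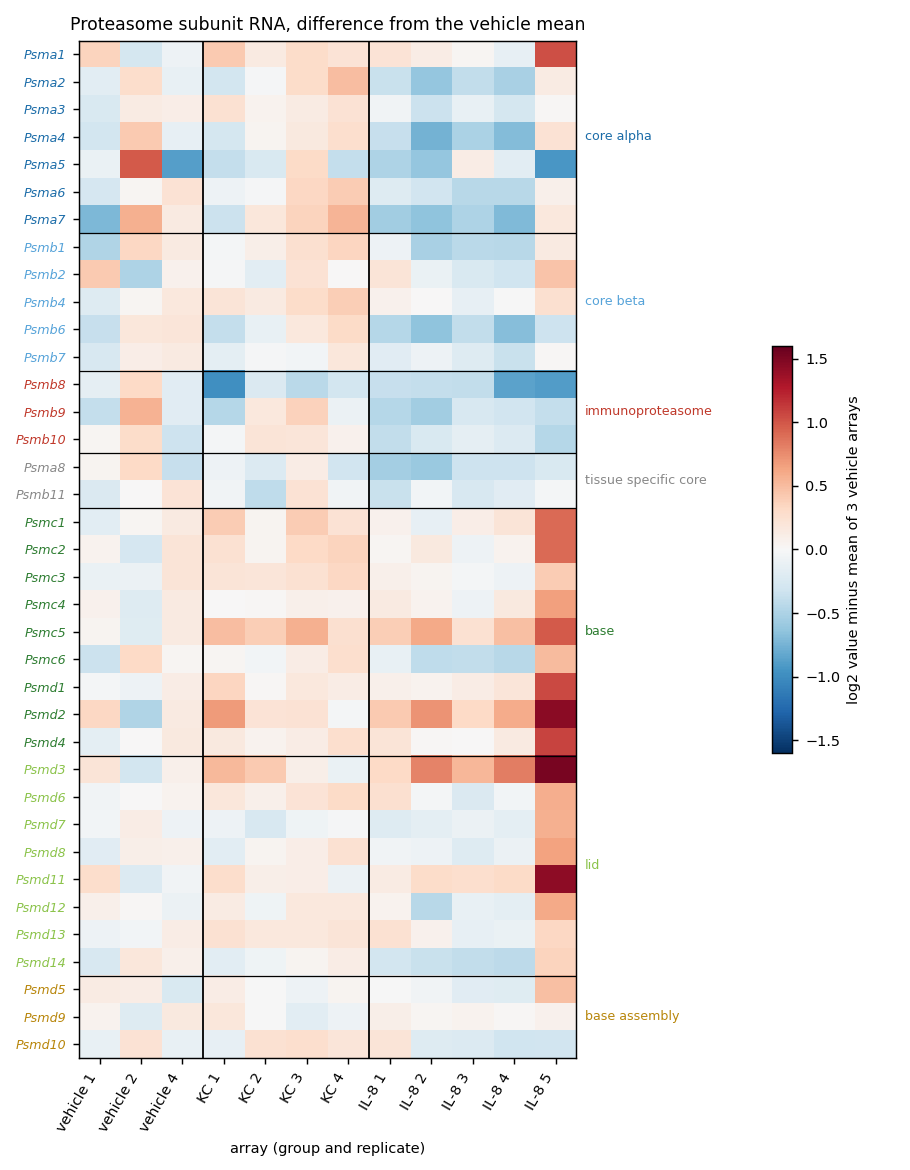
Heat map of the 37 subunits (rows, by class) on the 12 arrays (columns), coloured by the log2 value minus the mean of the 3 vehicle arrays. The base and lid rows are darkest red in IL-8 replicate 5, where all 17 have their highest value, while Psmb8 is blue in all KC and IL-8 arrays.

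Among the base and lid subunits, Psmd3, Psmd2 and Psmc5 had the largest fold changes after IL-8. Psmd3, a scaffold subunit of the lid, was at 6.17, 5.67 and 6.04 in the vehicle arrays and at 6.28, 6.75, 6.49, 6.77 and 7.48 in the IL-8 arrays. KC arrays were at 6.48, 6.38, 6.05 and 5.86. Every IL-8 array was above every vehicle array, and the KC arrays overlapped with both groups. For IL-8 against vehicle the log2 fold change was 0.79 ± 0.24 (SE), with a limma adjusted p of 0.123, so it was not called. Without IL-8 replicate 5 it was 0.61 (limma adjusted p = 0.141). It was called without vehicle replicate 1 (0.90, limma adjusted p = 0.054) and without IL-8 replicate 1 (0.91, limma adjusted p = 0.076). In these settings 14.4% and 5.29% of all genes were called. Here and for the genes below, omission of vehicle replicate 1 leaves only vehicle replicates 2 and 4, which had high liver transcripts.

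Psmc5, an ATPase of the base, was at 6.67, 6.44 and 6.78 in the vehicle arrays. It was at 7.02, 7.23, 6.87, 7.10 and 7.61 in the IL-8 arrays and at 7.12, 7.03, 7.20 and 6.89 in the KC arrays. Neither chemokine group overlapped with vehicle. The difference from vehicle on the log2 scale was 0.54 ± 0.17 (SE) for IL-8 (limma adjusted p = 0.127) and 0.43 ± 0.15 for KC (limma adjusted p = 0.994), both against the same 3 vehicle arrays. Psmd2, a scaffold of the base that docks ubiquitin shuttle proteins, was at 8.23, 7.42 and 8.04 in the vehicle arrays and at 8.31, 8.61, 8.21, 8.48 and 9.34 in the IL-8 arrays. These groups touched, since IL-8 replicate 3 was just below vehicle replicate 1. The log2 fold change was 0.70 ± 0.26 (SE), with a limma adjusted p of 0.168, and leaving out single arrays gave 0.46 (without vehicle replicate 2) to 0.86 (without vehicle replicate 1). Of these omissions, only the latter gave a call (limma adjusted p = 0.072), and without the 3 liver-transcript arrays the value was 0.44.

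The constitutive core subunits lay the other way. Psmb6, an active-site subunit of the core, was at 9.14, 9.69 and 9.71 in the vehicle arrays and at 9.06, 8.87, 9.13, 8.83 and 9.18 in the IL-8 arrays. Vehicle replicate 1 fell within the IL-8 range, and the other 2 vehicle arrays were above it. For IL-8 the log2 fold change was -0.50 ± 0.16 (SE, limma adjusted p = 0.128). It was -0.68 without vehicle replicate 1 and was then called (limma adjusted p = 0.013), while with the 3 liver-transcript arrays left out, which leaves vehicle replicate 1 alone, it was -0.14 (limma adjusted p = 0.897). Psmb7, which holds another active site, had a log2 fold change of -0.16 ± 0.14 (limma adjusted p = 0.505), or 0.10 without the 3 liver-transcript arrays.

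Psma7, an alpha ring subunit, was at 7.26, 8.55 and 8.12 in the vehicle arrays, a wide spread that covered the whole IL-8 group at 7.42, 7.33, 7.48, 7.27 and 8.14. Its log2 fold change was -0.45 ± 0.28 (SE, limma adjusted p = 0.366). Without vehicle replicate 1 it was -0.80 and was called (limma adjusted p = 0.045), without vehicle replicate 2 it was -0.16, and without the 3 liver-transcript arrays it was 0.29. Psma1 was the exception in the alpha ring, with a log2 fold change of 0.25 ± 0.25. The dim Psma8, known from testis, had a log2 fold change of -0.41 ± 0.16 (limma adjusted p = 0.186).

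**Figure D2:**
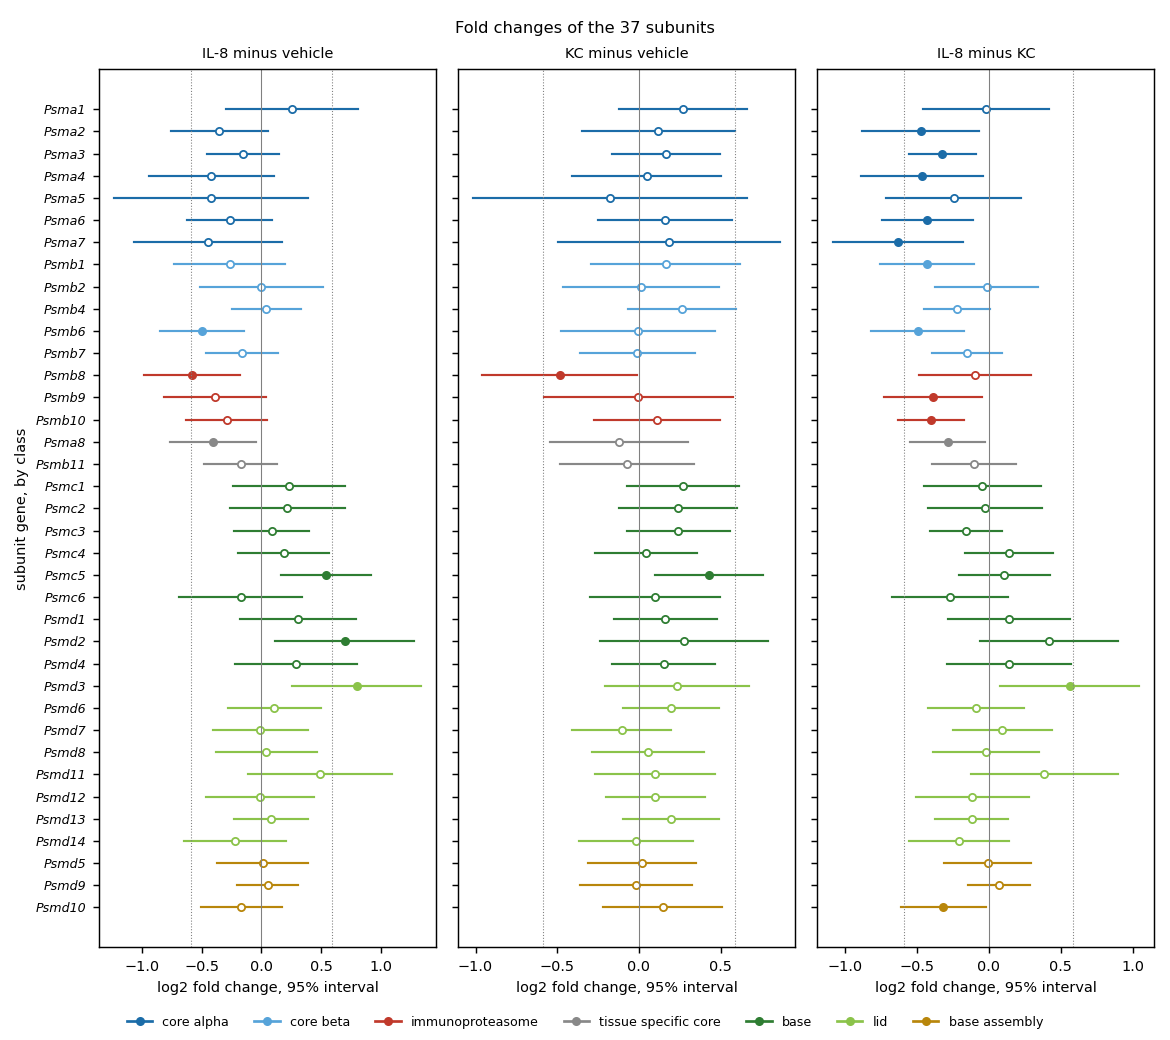
Log2 fold changes (points) with 95% intervals (lines) of the 37 subunits in the 3 comparisons, coloured by class; filled points have an unadjusted p under 0.05 and dotted lines mark a fold change of 1.5. For IL-8 against vehicle, Psmc5, Psmd2 and Psmd3 lie to the right and Psmb6, Psmb8 and Psma8 to the left, and 0 of the 37 subunits were called.

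Of the immunoproteasome subunits, 0 of 3 were called after IL-8, and Psmb8 alone had an unadjusted p under 0.05. Psmb8, which provides the chymotrypsin-like site of the immunoproteasome, was at 5.01, 5.47 and 4.97 in the vehicle arrays and at 4.78, 4.78, 4.76, 4.29 and 4.26 in the IL-8 arrays. KC arrays were at 4.18, 4.92, 4.72 and 4.85. All IL-8 and all KC arrays were below all vehicle arrays. The log2 fold change was -0.58 ± 0.18 (SE) for IL-8 (limma adjusted p = 0.126) and -0.49 ± 0.21 for KC (limma adjusted p = 0.994), with the vehicle arrays shared. For IL-8 it was -0.65 without vehicle replicate 1, and was then called (limma adjusted p = 0.059), and -0.49 without the 3 liver-transcript arrays (limma adjusted p = 0.624).

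Psmb9, the counterpart of Psmb6, was at 4.00, 4.93 and 4.20 in the vehicle arrays, at 3.92, 4.55, 4.75 and 4.29 in the KC arrays and at 3.93, 3.83, 4.12, 4.08 and 4.00 in the IL-8 arrays. The IL-8 arrays formed the tightest group, and vehicle replicate 1 lay inside it. The log2 fold change for IL-8 against vehicle was -0.39 ± 0.19 (SE, limma adjusted p = 0.267). It was -0.11 without vehicle replicate 2 and 0.01 without the 3 liver-transcript arrays. Psmb10, the counterpart of Psmb7, was at 5.60, 5.86 and 5.24 in the vehicle arrays, at 5.54, 5.77, 5.76 and 5.63 in the KC arrays and at 5.17, 5.32, 5.43, 5.35 and 5.11 in the IL-8 arrays. Every IL-8 array was below every KC array, but vehicle replicate 4 fell among the IL-8 values. Against vehicle, Psmb10 had a log2 fold change of -0.29 ± 0.15 (SE, limma adjusted p = 0.287), and single omissions gave -0.46 (without vehicle replicate 4) to -0.14 (without vehicle replicate 2). All 3 immunoproteasome genes had their highest value in vehicle replicate 2.

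Immune cells carry immunoproteasomes, so their markers are given beside these values. The mean over 5 leukocyte genes was 4.75 to 5.81 in vehicle, 4.94 to 5.94 in KC and 4.78 to 5.88 in IL-8 arrays. For IL-8 against vehicle, 2 of the 5 were higher and 3 lower, all 4 macrophage genes were lower (median -0.37) and all 4 B cell genes were lower (median -0.36), 2 of them at an unadjusted p under 0.05. All 5 T cell genes were lower as well, with a median of -0.08, while 2 of 5 neutrophil genes were higher. None of these immune genes was called. The T cell genes, the B cell genes other than Ighm and the neutrophil genes other than Mmp9 are dim here. Of 5 endothelial genes 4 were higher after IL-8 (median 0.37), and Vwf, the von Willebrand factor of endothelial cells, was called, with a log2 fold change of 0.64 ± 0.12 (SE, limma adjusted p = 0.091). The part of these cells in the immunoproteasome values was not tested. Of 9 interferon-responsive genes, 3 were higher and 6 lower after IL-8 (median -0.05), with Ifit1 (-0.41) and Ifit3 (-0.45) at an unadjusted p under 0.05. The genes of class I antigen presentation, which load the peptides that proteasomes produce, were mostly on the other side, with 6 of 8 higher and a median of 0.18. Of these, Tapbp, the peptide-loading chaperone tapasin, had a log2 fold change of 0.50 ± 0.14 (SE, limma adjusted p = 0.108). Tap2, a subunit of the peptide transporter that is dim here, had 0.38 ± 0.16 (limma adjusted p = 0.195). B2m, the light chain of class I molecules, had -0.28 ± 0.24 (limma adjusted p = 0.522).

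**Figure D3:**
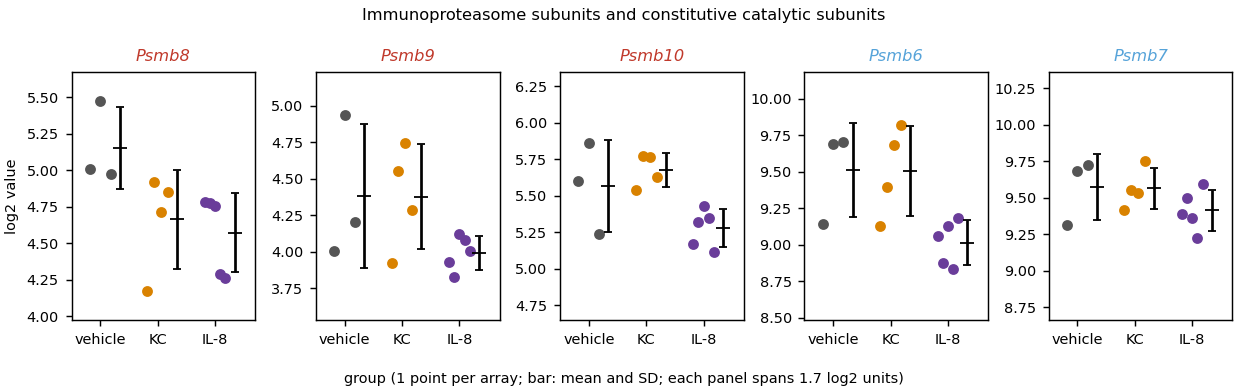
Log2 values of the 3 immunoproteasome subunits and of the constitutive active-site subunits Psmb6 and Psmb7, 1 point per array, with the mean and SD of each group; every panel spans the same number of log2 units but has its own origin. All KC and IL-8 points of Psmb8 lie below the vehicle points, and the IL-8 points of Psmb10 lie below all KC points.

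KC was not associated with a called change either. For KC against vehicle 0 of 37 subunits and 0% of all genes were called, and the smallest limma adjusted p over the subunits was 0.994. At an unadjusted p under 0.05 there were 2 subunits, against 3.98% of all genes, with Psmc5 higher (1.66%) and Psmb8 lower (2.32%). The median log2 fold change was 0.11 over the 37 genes, of which 27 were higher, and -0.00 over all genes, of which 49.1% were higher. With dim genes left out, 60.9% of genes were higher and the median was 0.06. All 9 base subunits and 6 of 8 lid subunits were higher, with medians of 0.24 and 0.10. The alpha ring had a median of 0.16 and the beta ring of 0.01. Without the 3 liver-transcript arrays these medians were 0.34 and 0.37, that of the base and lid subunits was 0.24 in place of 0.16, and that of all 37 subunits was 0.24. Without vehicle replicate 1 the median of the 12 core subunits was -0.02 in place of 0.14. After Psmc5, the largest values were 0.28 ± 0.23 (SE) for Psmd2 and 0.27 ± 0.15 for the ATPase Psmc1, and after Psmb8 the lowest were those of the dim Psma5 and Psma8, at -0.18 ± 0.38 and -0.12 ± 0.19.

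For 4 of 37 subunits (10.8%) the KC and vehicle arrays did not overlap, against 4.93% of all genes. Beside Psmc5 and Psmb8, these were the lid subunits Psmd6 and Psmd13, both of which belong to the horseshoe that holds the lid together. Psmd6 was at 7.58, 7.65 and 7.70 in vehicle and at 7.82, 7.73, 7.86 and 7.95 in KC arrays. Psmd13 was at 6.43, 6.47 and 6.64 in vehicle and at 6.76, 6.68, 6.68 and 6.72 in KC arrays. These shifts were small next to the IL-8 arrays, which covered 7.41 to 8.23 for Psmd6 and 6.39 to 6.84 for Psmd13. Both log2 fold changes were 0.20, with a limma adjusted p of 0.994. For IL-8 against vehicle the groups did not overlap for 3 subunits (8.11%), Psmc5, Psmd3 and Psmb8, against 11% of all genes.

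The chemokine groups were then compared with each other, which leaves the vehicle arrays out. For IL-8 against KC, 0 of 37 subunits were called, against 3.02% of all genes. At an unadjusted p under 0.05 there were 12 subunits, against 19.8% of all genes. Of these, 11 were lower (11.1% of all genes) and 1 was higher (8.76%). All 12 constitutive core subunits were lower after IL-8 than after KC, with a median of -0.37, against -0.05 over all genes, of which 41% were higher. In contrast, the 17 base and lid subunits had a median of -0.02, with 8 higher and 9 lower, and of -0.17 without IL-8 replicate 5. The immunoproteasome median was -0.39. Leaving out each array in turn kept the core median between -0.44 and -0.32.

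Psma7 had the largest difference, with KC arrays at 7.63, 8.15, 8.33 and 8.52 and a log2 fold change of -0.63 ± 0.21 (SE, limma adjusted p = 0.129). IL-8 replicate 5 was the sole IL-8 array above 7.63, the lowest KC array. Psmb6 was at 9.13, 9.39, 9.69 and 9.82 in the KC arrays, and its log2 fold change was -0.49 ± 0.15 (limma adjusted p = 0.106). Without KC replicate 1, Psma2, Psma7 and Psmb6 were called lower, and 7.51% of all genes were called. Other core subunits at an unadjusted p under 0.05 were Psma2 (-0.47), Psma3 (-0.32), Psma4 (-0.46), Psma6 (-0.42) and Psmb1 (-0.43). Psma3, a structural subunit of the alpha ring, was at 7.20, 7.01, 7.09 and 7.18 in the KC arrays and at 6.90, 6.61, 6.84, 6.68 and 6.97 in the IL-8 arrays, without overlap.

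Psmb10 was the sole subunit below an adjusted p of 0.1 in this comparison, against 4.95% of all genes. Its log2 fold change of -0.40 ± 0.10 (SE) had a limma adjusted p of 0.081, but the fold change of 1.32 was under the minimum of 1.5. The IL-8 and KC arrays did not overlap for Psmb10 and Psma3, 2 of 37 (5.41%), against 6.67% of all genes. Psmb9 had a log2 fold change of -0.39 ± 0.16 (limma adjusted p = 0.195) and Psmb8 of -0.09 ± 0.18 (limma adjusted p = 0.813). Psmd10, known as gankyrin, a chaperone of base assembly, had -0.31 ± 0.14 (limma adjusted p = 0.223). Psmd3 was the subunit on the other side, at 0.56 ± 0.22 (limma adjusted p = 0.188), and without IL-8 replicate 5 at 0.38 (limma adjusted p = 0.251). Next to it were Psmd2 at 0.42 ± 0.22 and Psmd11 at 0.39 ± 0.23, which without IL-8 replicate 5 were at 0.23 and 0.15. The dim Psma8 had -0.28 ± 0.12 (limma adjusted p = 0.213).

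**Figure D4:**
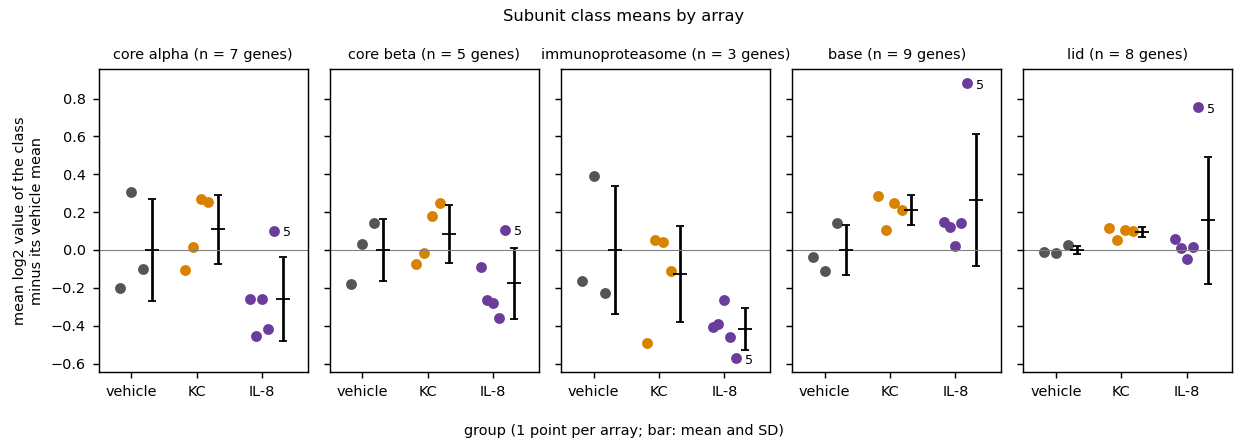
Mean log2 value of 5 subunit classes on each array, minus the mean of the class over the vehicle arrays; points are arrays and bars give the mean and SD of the group, with IL-8 replicate 5 marked 5. In the base and lid panels IL-8 replicate 5 stands at 0.88 and 0.75 while the other 4 IL-8 arrays lie between -0.05 and 0.15.

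A single IL-8 array carried much of the spread of the regulatory particle. IL-8 replicate 5 had the highest value of the 12 arrays for all 17 base and lid subunits and for 20 of the 37 subunits in all, against 9.46% of all genes. It was highest for 2 of the 12 constitutive core subunits, Psma1 and Psmb2, and for 0 of the 3 immunoproteasome subunits. The mean over the base and lid subunits was 8.43 there, while IL-8 replicates 1 to 4 were at 7.60 to 7.71, vehicle at 7.55 to 7.70 and KC at 7.69 to 7.82.

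The difference between IL-8 replicate 5 and the mean of the other 4 IL-8 arrays had a median of 0.78 over the base and lid subunits, with a range of 0.31 to 1.18. Over all genes the median was -0.01, and 5.19% of genes were above 0.5, against 15 of the 17 base and lid subunits. Psmd11, a lid subunit that helps to hold the regulatory particle on the core, was at 8.13, 8.29, 8.27, 8.29 and 9.42 in the IL-8 arrays. The other 11 arrays of the series were at 7.78 to 8.30, so the excess of 1.18 lay outside all of them. Psmd4, a ubiquitin receptor of the base, was at 7.54, 7.35, 7.34, 7.47 and 8.41. Psmd14, the deubiquitinase of the lid, was at 7.25, 7.19, 7.15, 7.12 and 7.90. Psmd3, Psmd11 and Psmd2 reached their highest values in the same array, as did the ATPases Psmc1 to Psmc6.

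The core differed less in that array. The median difference from the other IL-8 arrays was 0.61 over the alpha ring, 0.27 over the beta ring and -0.20 over the immunoproteasome genes. Psma1 was at 7.63 there and at 6.48 to 6.82 in IL-8 replicates 1 to 4, whereas Psma3 was at 6.97, against 6.61 to 6.90. Psmb6 was at 9.18 there, against 8.83 to 9.13, and Psmb8 was at 4.26, the lowest IL-8 value. Outside the 37 genes, 4 of 6 proteasome-associated genes were also highest in IL-8 replicate 5. Among them, Usp14 was at 6.70 there, against 5.61 to 5.89 in IL-8 replicates 1 to 4. Txnl1 was at 8.65 (against 7.47 to 7.81) and Ecpas at 9.53 (against 8.60 to 8.97). Sem1, a small lid subunit, was not highest there (7.77 against 7.60 to 8.22), nor was Uchl5 (6.31 against 6.01 to 6.49). Of the proteasome activator genes, Psme4 had its highest value there (9.65) and Psme1 its lowest (6.12). Usp14 is a deubiquitinase that sits on the base, and Ecpas is a scaffold that binds the 26S particle. The muscle fiber genes differed there by a median of 0.04 and the leukocyte genes by -0.34, while 4 of 5 neutrophil genes were higher (median 0.60). Those 4 are dim here. Mmp9, the brightest of the 5, was lower, at 2.90 against 3.26 to 3.80 in IL-8 replicates 1 to 4. The part of these cells in the subunit values was not tested. The array itself correlated with the other 11 at a median r of 0.978 across genes, within the range of 0.965 to 0.984 of all arrays. This was the lowest of the IL-8 arrays, as IL-8 replicates 1 to 4 were at 0.982 to 0.984. Arrays were also placed on principal components, axes of variation over all genes. On the second component IL-8 replicate 5 was at 23.14, against -3.93 to 5.37 in IL-8 replicates 1 to 4. Vehicle replicate 2 was at 24.21.

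**Figure D5:**
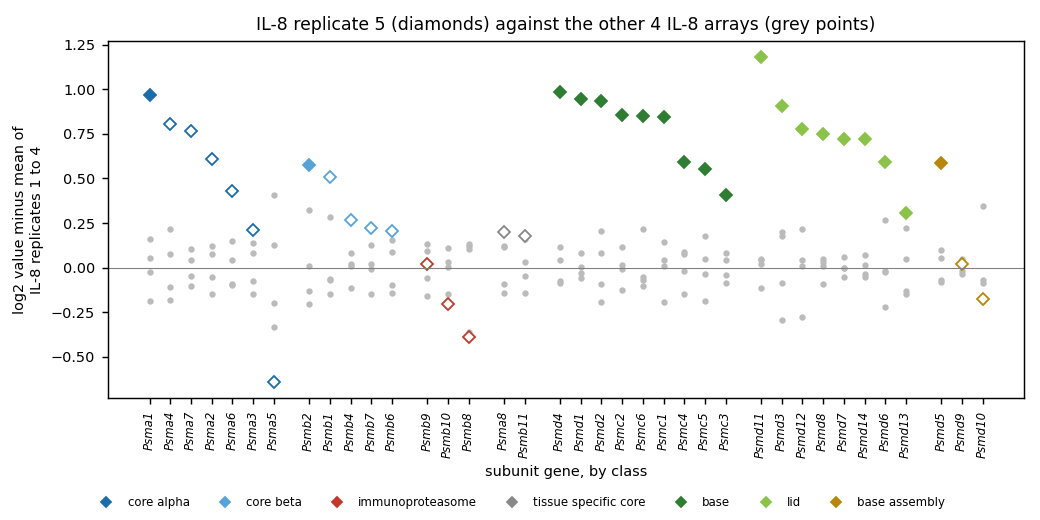
For each subunit (x axis, by class), the log2 value of IL-8 replicate 5 (diamonds) and of IL-8 replicates 1 to 4 (grey points), each minus the mean of replicates 1 to 4; filled diamonds mark subunits whose highest value of the 12 arrays is IL-8 replicate 5. All base and lid diamonds are filled and lie at 0.31 to 1.18, while Psmb8 and Psmb10 lie below 0.

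The classes were also compared within each array. The mean of the 17 base and lid subunits minus the mean of the 12 constitutive core subunits was taken on each array, and its vehicle mean was set to zero. Vehicle arrays were then at 0.17, -0.26 and 0.09, and KC arrays at 0.30, 0.08, -0.05 and -0.09. IL-8 arrays were at 0.29, 0.45, 0.26, 0.48 and 0.72. All IL-8 arrays were above all vehicle arrays, and KC replicate 1 fell among the IL-8 arrays. Vehicle replicate 1, the sole vehicle array without high liver transcripts, was nearest to the IL-8 arrays, at 0.17 against their lowest of 0.26. With the dim Psma5 left out, vehicle was at -0.19 to 0.18 and IL-8 at 0.26 to 0.62. No test was made of this difference, because the classes were compared with earlier results in view.

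Genes that work with the proteasome were described from lists. For IL-8 against vehicle, 0 of 5 activators and inhibitors were called and 3 were higher. Psme4, the activator PA200, had a log2 fold change of 0.54 ± 0.22 (SE, limma adjusted p = 0.188) and Psmf1, an inhibitor of the core, of 0.48 ± 0.16 (limma adjusted p = 0.141). The interferon-induced activator genes Psme1 and Psme2 had -0.14 ± 0.24 and -0.16 ± 0.18. None of the 5 core assembly chaperones (Psmg1 to Psmg4 and Pomp) was called, and their median was 0.05. Of 6 proteasome-associated genes 5 were higher, with Ecpas at 0.65 ± 0.20 (limma adjusted p = 0.124) and Ube3c, a ubiquitin ligase of the particle, at 0.44 ± 0.14 (limma adjusted p = 0.135), both without overlap between the groups.

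Sem1, a small lid subunit whose symbol the rule does not take, was called for IL-8 against KC. It was at 8.31, 8.28, 8.51 and 8.63 in the KC arrays and at 8.22, 7.82, 7.80, 7.60 and 7.77 in the IL-8 arrays. All IL-8 arrays were below all KC arrays. For IL-8 against KC the log2 fold change was -0.59 ± 0.13 (SE), with a limma adjusted p of 0.072, while IL-8 against vehicle gave -0.20 ± 0.17 (limma adjusted p = 0.496).

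Nfe2l1, the transcription factor that raises proteasome genes when proteasome activity is short, was at 8.72, 8.14 and 8.12 in vehicle and at 8.63, 9.10, 9.06, 9.13 and 8.61 in IL-8 arrays. KC arrays were at 8.72, 8.47, 8.13 and 7.98. IL-8 replicates 2, 3 and 4 were above all other arrays, and IL-8 replicates 1 and 5 lay within the vehicle range. The log2 fold change was 0.58 ± 0.19 (SE) against vehicle (limma adjusted p = 0.134) and 0.58 ± 0.17 against KC (limma adjusted p = 0.107). Nfe2l2, a related factor of the oxidative stress response, was at 6.87, 6.19 and 6.30 in vehicle and at 6.74, 6.89, 6.81, 6.88 and 7.67 in IL-8 arrays, with replicate 5 the highest. Its log2 fold change was 0.54 ± 0.23 (SE, limma adjusted p = 0.208). Ngly1, the deglycosylase that processes Nfe2l1, had 0.03 ± 0.13 (limma adjusted p = 0.920). Whether these factors had a part in the subunit values was not tested.

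Fold changes were also set against gene span. Across the 37 genes, which are not independent replicates, the Spearman correlation of the log2 fold change with the length of the gene was 0.16 for IL-8 against vehicle, -0.11 for KC against vehicle and 0.16 for IL-8 against KC, against 0.27, 0.11 and 0.23 across all genes. The range over the 12 arrays had a median of 0.95 over the subunits, against 0.80 over all genes and 0.89 over the genes above the median level. It was widest for Psmd2, at 1.92, and narrowest for the base assembly chaperone Psmd9, at 0.39.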

How the data were processed

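The values deposited by the authors are on the log2 scale, and the submitters' processing notes name RMA, affy 1.36.1 and R 2.15.1. RMA corrects background, quantile-normalizes probes and summarizes them, which largely removes differences in overall brightness. Rows are Entrez genes named through the platform annotation. Of 25206 rows, 23185 had 1 symbol and were tested, and 2021 were unnamed. The labels' extraction text describes human biopsies, and the paper's description of mouse TA was used. Vehicle replicate 3 was not analysed here. Array data carry no read depth, and the number of arrays limits precision.

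From these values, limma 3.58.1 in R 4.3.3 (lmFit, eBayes) compared each pair of groups on its own arrays, and p-values were adjusted over all genes tested. Nothing states that replicates share an animal, litter or day, and the p-values set group differences against the spread between these samples. Replicate numbers were not used to pair arrays in the main fit. The members and gene lists were chosen with earlier results of these data known. Genes named are the immunoproteasome subunits and their counterparts, Psmd3, members with an unadjusted p under 0.05 and the 3 largest fold changes each way per comparison; others were named after their values were seen. Listed genes not analysed here include Adrm1, Ddi2, Lyz2 and Serpina1a.

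Alternatives were quantile normalization, median centring, dim genes left out, all 12 arrays in one fit, every row tested, an intensity trend, array weights and a replicate block. Further ones were an unpaired t-test with unequal variances, a stricter adjusted p (0.05), calls without a fold minimum and a gene span trend removed. The last were a block for arrays with Alb above 7 (log2) and each array left out. Omission of the 3 arrays with Alb above 7 was added after the values were seen. The fit was tested on simulated data. Promoters were searched with Python 3.11.15, and figures drawn with matplotlib 3.10.9.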

Additional observations from a re-analysis of the deposited data

Results flagged for a closer look

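In 74 groups of 4 or 5 arrays (37 subunits in KC and IL-8), 11 had an array far from the others. The measure was the gap between the array and its neighbour relative to the range of the group. For independent groups of normally distributed values, about 1 in 20 would be flagged. The subunits share the same arrays and are not independent, and the share over all genes was not taken. In 9 of the 11 groups the array was IL-8 replicate 5, on the high side. The base subunits were Psmc2 at 8.63, Psmd1 at 8.91 and Psmd4 at 8.41. The lid subunits were Psmd7 at 9.30, Psmd8 at 9.46, Psmd11 at 9.42 and Psmd14 at 7.90. The others were the assembly chaperone Psmd5 at 6.21 and the alpha ring subunit Psma7 at 8.14. Psmd10 stood high at 5.22 in IL-8 replicate 1, an array with liver transcripts, and Psmd12 low at 8.19 in KC replicate 2.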

How the results depend on the processing

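Calls of subunits were few under every setting, and KC against vehicle gave 0 under all of them. For IL-8 against vehicle, 1 subunit was called with dim genes left out (Psmd3) and 2 with array weights (Psmb6, Psmd3). The shares of all genes called there were 8.14% and 8.98%. With each array left out 0 to 5 subunits were called (5 without vehicle replicate 1, 1 without IL-8 replicate 1). For these 2 omissions, 14.4% and 5.29% of all genes were called. For IL-8 against KC, 1 was called with dim genes left out and 1 with array weights (Psma7), against 7.72% and 5.15% of all genes. Without a fold minimum 1 was called (Psmb10), against 4.95% of all genes. With each array left out 0 to 3 were called (3 without KC replicate 1, against 7.51% of all genes). The replicate block gave 0 called subunits in each comparison, and 0 called genes in all. Same-numbered arrays deviated together at r of -0.36 to 0.36, and arrays of unlike number at -0.41 to 0.30. With so few arrays this does not settle whether the numbers stand for a shared factor. Over all genes and all these settings, calls ranged from 0 to 3338 for IL-8 against vehicle, 0 to 92 for KC against vehicle and 0 to 1741 for IL-8 against KC.

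Directions turned as follows, and the cause was not tested. Omitting the 3 liver-transcript arrays, which leaves 1 vehicle array assumed to vary like the others, gave IL-8 against vehicle log2 fold changes of 0.293 (Psma7), 0.104 (Psmb7) and 0.005 (Psmb9). For KC against vehicle, that omission and a block for these arrays both gave 0.365 (Psmb6), 0.248 (Psmb7), 0.374 (Psmb9) and -0.055 (Psmd2). Median centring gave 0.046 (Psmb6), 0.041 (Psmb7) and 0.049 (Psmb9), array weights gave 0.133 (Psma5), 0.005 (Psma8) and 0.095 (Psmb9), and removal of the gene span trend gave 0.039 (Psmb6) and 0.031 (Psmb9). With each array left out, the KC values ranged from -0.617 to 0.318 (Psma5), -0.306 to 0.040 (Psma8), -0.191 to 0.120 (Psmb6), -0.141 to 0.063 (Psmb7), -0.192 to 0.274 (Psmb9) and -0.057 to 0.257 (Psmb10).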
